A study of Homo sapiens with 24 samples.

Results

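RK-33-treated and control U2OS cells were compared in the insoluble cytoplasmic fraction, with 3 libraries of each group, which are 6 of the 24 libraries of the series. U2OS is a human osteosarcoma cell line, and RK-33 is a small molecule that blocks the ATPase and helicase activity of the DEAD-box RNA helicase DDX3. Control cells (Ctrl_insoluble) were given 0.12% DMSO for 2 h, and treated cells (RK_insoluble) were given 6 µM RK-33 as a pre-treatment of 1 h. The study's methods describe the DMSO as timed like the RK-33, so the whole exposure to RK-33 may have been longer than the pre-treatment. Neither group was given NaAsO2. Cells were broken in a mild detergent, nuclei were spun out, and the pellet of a faster spin was taken for the insoluble fraction. It is enriched for ribonucleoprotein (RNP) granules but also holds whatever else sediments at that speed. The libraries were depleted of rRNA and sequenced from both ends. The other 18 libraries (the soluble fraction of the same lysates, and both fractions of cells given NaAsO2 with or without RK-33) entered the fit that estimates the spread, and the soluble Ctrl and RK-33 libraries were used to test where the fractions differed.

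DDX3 unwinds RNA in translation initiation, mRNA export and decay, and it is a component of stress granules and P-bodies, the RNP granules in which untranslated mRNA collects. mRNAs of secreted and membrane proteins are translated on the endoplasmic reticulum (ER), which sediments readily, so that a pellet of this kind may hold them together with granules and large polysomes. Cells that meet proteotoxic stress activate heat shock factor 1 (HSF1), which drives chaperone genes, and many other stresses activate the immediate early genes, whose mRNAs appear and decay within minutes to hours.

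The 6 libraries held 13852700 to 17167157 exon plus intron counts. Replicates of a group agreed at r = 0.988 to 0.990 (Pearson, log2 CPM, counts scaled to a fixed library total, over genes, which are not independent replicates), and no pair was as alike as sampling noise alone would make it (chi-square per degree of freedom 2.39 to 5.97). Values below are CPM after TMM scaling, so each is a share of a library, and a lower share cannot be told apart from a gain of other RNAs. Likewise, fewer cells holding an RNA and less RNA per cell cannot be told apart in bulk samples. Of 8 markers of mesenchymal and osteoblast cells, TWIST1 had 0 counts in all 6 libraries and COL1A2 1 to 9 counts, whereas VIM, COL1A1, SPARC and FN1 were abundant. The markers of blood cells summed to 0.328 to 1.44 CPM, and the epithelial markers, nearly all of it KRT8 and KRT18, to 401 to 459 CPM in Ctrl and 242 to 244 CPM after RK-33. Markers of nuclear RNA summed to 7116 to 9090 CPM in Ctrl and 6773 to 7681 CPM after RK-33, most of it MALAT1, with RN7SK at 0 counts. The study's methods give the replicates as 3 repeats of the experiment.

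After RK-33, 1018 of 17666 tested genes (5.76%) were higher and 1429 (8.09%) were lower in the insoluble fraction at an adjusted p under 0.05. All adjusted p given for genes, introns and circRNAs are from edgeR's quasi-likelihood test with Benjamini-Hochberg adjustment over all features tested. A log2 fold change of at least 1 was reached by 126 of the higher genes (0.713%) and 201 of the lower genes (1.14%). Where the 6 libraries averaged 10 CPM or more, the higher genes with the smallest p include heat-shock chaperones and immediate early transcription factors, and the lower genes with the smallest p encode proteins of the ER, the secretory pathway and membranes. All 3 RK-33 libraries lay above all 3 Ctrl libraries for 3783 genes and below them for 3965. With libraries scaled by size alone in place of TMM, 1358 genes were higher and 1167 lower. The number of called genes, 2447, was 1627 without Ctrl replicate 2, 1534 without RK-33 replicate 2 and 1616 without RK-33 replicate 3.

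**Figure D1:**
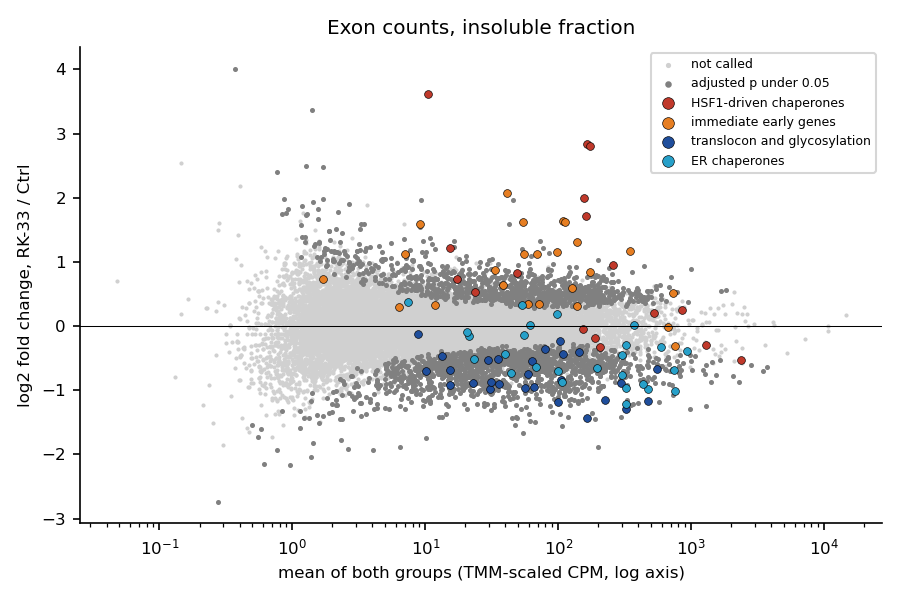
Log2 fold change (RK-33 over Ctrl, insoluble fraction) against the mean TMM-scaled CPM of both groups (log axis) for 17666 genes. Grey points are genes that were called (dark) or not (light), and coloured points are members of 4 gene lists. Heat-shock chaperones reach 3.62 (HSPA6) and the genes of the translocon and glycosylation lie below 0.

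DDX3X, which encodes the target of RK-33, was present at 468, 495 and 534 CPM in the Ctrl libraries and at 416, 382 and 395 CPM in the RK-33 libraries. The groups did not overlap, which held in this direction for 3965 of the 17666 tested genes. The log2 fold change of -0.33 ± 0.20 (SE) did not pass the test (edgeR adjusted p = 0.331). An mRNA level says nothing of the activity of an enzyme that a drug inhibits. G3BP1, whose protein nucleates stress granules, stood at 449 ± 38.3 CPM in Ctrl and 420.5 ± 24.4 CPM after RK-33 (mean ± SD, n = 3 each; log2 fold change -0.10, edgeR adjusted p = 0.643), and its groups overlapped.

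HSPA1A and HSPA1B, which encode the stress-inducible HSP70 chaperone, were among the genes that rose furthest. HSPA1B (chr6:31827738-31830254) was present at 44.5, 43.6 and 42.7 CPM in Ctrl and at 308, 287 and 316 CPM after RK-33. Every RK-33 library thus held several times the level of every Ctrl library, and the mean rose 6.97-fold (log2 fold change 2.801 ± 0.24, edgeR adjusted p = 7.39e-08). HSPA1A (chr6:31815543-31817946) rose 7.16-fold (2.84 ± 0.22, edgeR adjusted p = 2.83e-08), from 40.5 ± 1.26 to 290 ± 15.9 CPM. The mRNAs of this pair are nearly identical, and fragments that align to both are not unique, so the level of each copy is uncertain. HSPA6, a further inducible HSP70 that is nearly silent in unstressed cells, was at 1.09, 1.72 and 1.84 CPM in Ctrl and at 17.6, 18.8 and 21.8 CPM after RK-33. It rose 12.3-fold, the largest exon change of any gene named here (3.62 ± 0.33, edgeR adjusted p = 1.75e-07).

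Some cochaperones of HSP70 and HSP90 rose with them, and others did not (STIP1 fell and DNAJA1 did not pass the test). DNAJB1, the HSP40 partner of HSP70, went from 70.4, 76.7 and 79.7 CPM to 256, 226 and 263 CPM (log2 fold change 1.72 ± 0.15, edgeR adjusted p = 1.07e-07). CHORDC1, an HSP90 cochaperone, went from 67.6, 57.1 and 62.8 CPM to 254, 228 and 263 CPM (1.99 ± 0.19, edgeR adjusted p = 2.90e-07). DNAJA4 and DNAJB6 are further members of the HSP40 family. DNAJA4 rose from 18.6 ± 1.54 to 72.3 ± 6.06 CPM (1.96 ± 0.15), and DNAJB6 from 53.1 ± 0.606 to 117 ± 4.65 CPM (1.14 ± 0.10). None of these 4 genes had overlapping groups, which adds no support, since they were named for their small p in the same libraries. Exons of DNAJB1 overlap TECR on the opposite strand and those of DNAJA4 overlap DNAJA4-DT, and the strand setting of the counts is not given in the sources used here, so reads of these pairs may not be told apart.

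HSF1 binds inverted repeats of the bases GAA in the promoters of its targets. The motif GAANNTTCNNGAA (on the other strand TTCNNGAANNTTC) was searched in the RefSeq promoter windows of GRCh38.p14, which run from 250 bases before to 50 after the start of a gene and span 300 bases. It occurred in 133 of all 27305 windows (0.487%), in 39 of the 11789 windows matched to tested genes (0.331%), in 3 of the 9 windows of the 10 genes with the strongest increases (33.3%) and in 4 of the 16 windows of the HSF1 chaperone list (25%). It also occurred in 5 of 741 windows of all called higher genes (0.675%) and in 3 of 1149 of called lower genes (0.261%), near the share of all tested genes. These counts are a description, since the list was made of known heat-shock genes. The windows with a match before the gene start are shown for CHORDC1, HSPA6 and DNAJB6, which rose, and for HSPA8, which did not pass the test, as 101 bases each with the matching bases in capitals (overlapping matches run together).
CHORDC1 (chr11:90223053-90223153, minus strand): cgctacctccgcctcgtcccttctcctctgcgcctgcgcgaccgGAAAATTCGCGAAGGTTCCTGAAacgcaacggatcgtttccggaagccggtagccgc
HSPA6 (chr1:161524422-161524522, plus strand): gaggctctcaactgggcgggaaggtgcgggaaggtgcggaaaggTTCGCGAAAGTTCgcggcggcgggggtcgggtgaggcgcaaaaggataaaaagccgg
DNAJB6 (chr7:157336829-157336929, plus strand): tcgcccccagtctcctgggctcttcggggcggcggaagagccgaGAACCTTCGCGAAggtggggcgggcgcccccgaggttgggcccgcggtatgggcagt
HSPA8 (chr11:123062286-123062386, minus strand): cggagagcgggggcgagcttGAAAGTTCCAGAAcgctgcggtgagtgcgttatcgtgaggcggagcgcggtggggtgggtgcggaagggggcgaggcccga
The first match began 60 bases before the start in CHORDC1, 74 in HSPA6, 131 in DNAJB6 and 230 in HSPA8. HSPA8 held 2 matches before its start, and the later match lies outside the bases shown. DNAJA1, the fourth member of the list with a match, and HSPA8 had exon log2 fold changes of -0.04 and -0.30, whereas the windows of HSPA1A, HSPA1B and DNAJB1 held no match to these letters.

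Of 17 tested HSF1-driven chaperone genes, 9 rose and 2 fell, against 5.76% and 8.09% of all genes, and the median log2 fold change was 0.73 against 0.00 over all genes. Among the further members that rose, HSPE1, the mitochondrial cochaperonin, went from 9.24 ± 1.73 to 21.5 ± 2.51 CPM (log2 fold change 1.22, edgeR adjusted p = 3.27e-06), HSPH1, a nucleotide exchange factor of HSP70, from 175 ± 12.5 to 339 ± 13.5 CPM (0.96, edgeR adjusted p = 4.57e-07), and BAG3, which links HSP70 to autophagy, from 35.5 ± 1.496 to 62.9 ± 2.33 CPM (0.83, edgeR adjusted p = 2.37e-05). The members that fell were the abundant HSP90AB1, the constitutive HSP90 (2432, 2820 and 3184 CPM in Ctrl against 2056, 1847 and 1943 CPM after RK-33; -0.53, edgeR adjusted p = 0.00632), and STIP1, which hands clients from HSP70 to HSP90 (-0.32, edgeR adjusted p = 0.0466). HSPA8, HSP90AA1, HSPD1, HSPB1 and DNAJA1 did not pass the test (-0.30 to 0.25). Without any single library, 8 to 10 members were higher. The number that fell was 1 without Ctrl replicate 2 or 3 or any of the RK-33 libraries.

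Immediate early genes rose as well: 15 of 24 tested were higher and 1 lower, with a median log2 fold change of 0.85. ATF3, a stress-induced transcription factor, had the smallest p of all genes (chr1:212565334-212620777). It stood at 15.2, 15.6 and 16.2 CPM in Ctrl and at 65.7, 63.9 and 68.8 CPM after RK-33, a 4.21-fold rise with little spread in either group (2.08 ± 0.11, edgeR adjusted p = 6.02e-11). FOS, a subunit of the AP-1 transcription factor, was at 27.8, 26.3 and 25.1 CPM in Ctrl and 76.4, 79.8 and 87.4 CPM after RK-33 (1.62 ± 0.14, edgeR adjusted p = 9.12e-08). EGR1, a zinc finger transcription factor of the serum response, went from 51.84, 52.998 and 52.56 CPM to 157, 141 and 190 CPM (1.63 ± 0.16, edgeR adjusted p = 4.93e-07). Other AP-1 and Krüppel-like members moved by similar amounts, with JUN at 1.18, JUNB at 1.12, KLF6 at 1.15 and KLF10 at 1.31 (log2 fold changes), as did the genes that switch the response off, the phosphatases DUSP1 (1.62) and DUSP5 (1.13) and ZFP36 (1.13), which destabilises AU-rich mRNAs. MYC rose from 101.1 ± 1.55 to 152 ± 8.56 CPM (0.59, edgeR adjusted p = 0.000164). The member that fell, CCN1 (-0.31, edgeR adjusted p = 0.0440), encodes a secreted matrix protein, and it lost its call without any single library except RK-33 replicate 2. TRIB1, a pseudokinase outside this list, rose from 40.4, 40.4 and 43.2 CPM to 98.9, 109 and 102 CPM (1.32 ± 0.11, edgeR adjusted p = 5.33e-08).

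**Figure D2:**
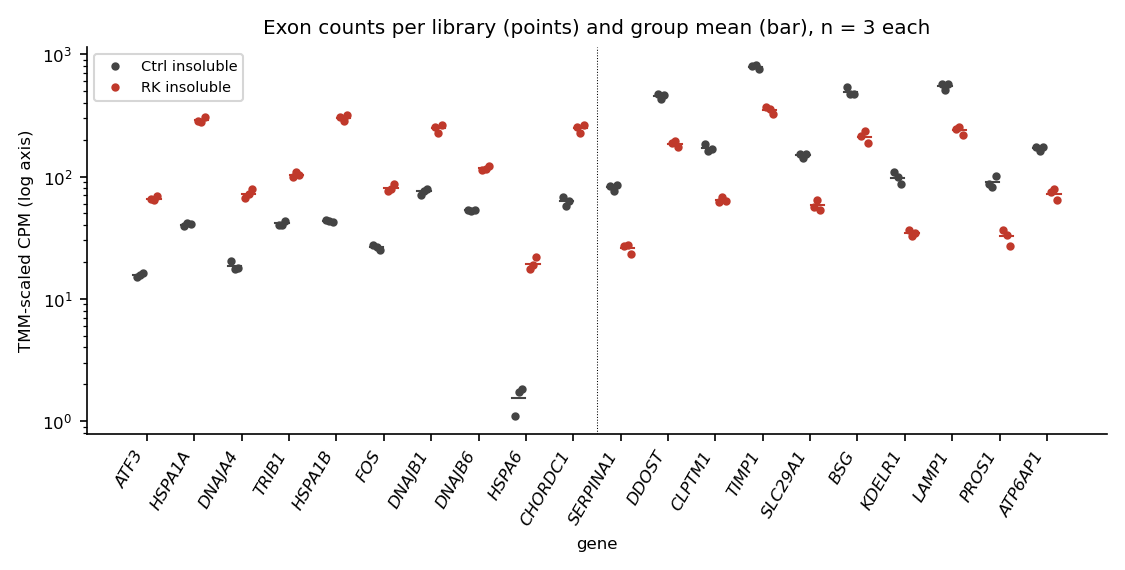
TMM-scaled CPM (log axis) in each Ctrl (grey) and RK-33 (red) library of the insoluble fraction, with the group means as bars, for the 10 genes with the strongest increases and the 10 with the strongest decreases by adjusted p. In all 20 genes the 3 RK-33 libraries lie on the same side of the 3 Ctrl libraries. The genes were chosen by p and fold change in these same libraries, so this separation is no separate support.

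Targets of other stress regulators changed in part. Of 22 tested targets of ATF4, the transcription factor of the integrated stress response, 6 rose and 2 fell, with a median of 0.37. DDIT3, the proapoptotic factor CHOP, went from 3.82 ± 1.29 to 14.8 ± 0.923 CPM (1.96 ± 0.20, edgeR adjusted p = 5.26e-07), and CHAC1, a glutathione-degrading enzyme, from 5.505 ± 0.463 to 13.8 ± 1.67 CPM (1.33 ± 0.18, edgeR adjusted p = 1.96e-05), while SLC7A11, the cystine transporter, fell from 259 ± 22.6 to 151 ± 9.46 CPM (-0.78, edgeR adjusted p = 0.00444). ATF3 is counted in this list too. Of its members, 3 were higher without Ctrl replicate 1 or RK-33 replicate 3, and 1 was lower without Ctrl replicate 2 or 3 or any of the RK-33 libraries. Of 22 p53 targets, 5 rose and 1 fell, among them PMAIP1, a BH3-only killer protein (32.4 ± 1.89 to 53.8 ± 4.60 CPM, 0.73), and MDM2, the ligase that degrades p53 (126 ± 5.25 to 193 ± 5.45 CPM, 0.62). Of 21 NF-kB and interferon response genes, 2 rose, namely TNFAIP3, a feedback inhibitor of NF-kB (21.3 ± 1.72 to 64.2 ± 4.75 CPM, 1.59, edgeR adjusted p = 2.90e-07), and CXCL8, the chemokine interleukin-8 (4.64 ± 1.33 to 13.6 ± 0.835 CPM, 1.54, edgeR adjusted p = 0.00252). None of the NF-kB list fell. Over all genes 5.76% rose and 8.09% fell. The NF-kB count and the numbers of ATF4 and p53 targets that fell lay near these shares and say nothing particular about those lists. Of 20 targets of NRF2 and BACH1, the regulators of the oxidative stress response, 0 rose and 8 fell, including TKT of the pentose phosphate pathway (147 ± 4.37 to 75.7 ± 2.94 CPM, -0.96), the epoxide hydrolase EPHX1 (-1.11) and NQO1 (-0.54).

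The mRNAs of the machinery that moves proteins into the ER fell together. Of 27 tested genes of the translocon, signal peptidase and N-glycosylation, 21 were lower and 0 higher, and all 27 log2 fold changes were negative, with a median of -0.83. DDOST, a subunit of the oligosaccharyltransferase that attaches glycans (chr1:20651767-20661544), was present at 469, 428 and 464 CPM in Ctrl and at 189, 194 and 176 CPM after RK-33 (-1.29 ± 0.10, edgeR adjusted p = 1.87e-08). The groups lay far apart, and the Ctrl mean was 2.44 times the RK-33 mean. RPN1, of the same complex, went from 300, 293 and 335 CPM to 144, 147 and 127 CPM (-1.15 ± 0.12, edgeR adjusted p = 6.82e-07). STT3A, its catalytic subunit, had the largest change of the list (240 ± 32.2 to 88.8 ± 12.4 CPM, -1.44, edgeR adjusted p = 8.14e-05). SSR2 of the translocon-associated complex (-0.95), TRAM1 (-1.18), the signal peptidase subunits SEC11A (-0.90) and SPCS2 (-0.99), SRP54 of the signal recognition particle (-0.75) and the channel subunit SEC61A1 (-0.66) also fell. The 7SL RNA of the signal recognition particle, as RN7SL1, stood at 7700 ± 766 CPM in Ctrl and 6714 ± 851 CPM after RK-33 (-0.20 ± 0.59, edgeR adjusted p = 0.879), and of 5 tested Pol III RNAs 0 passed the test. An exon of DDOST overlaps PINK1-AS on the same strand.

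Chaperones that work inside the ER fell too. Of 26 tested ER chaperone and folding genes, 13 fell and 0 rose, with a median of -0.48. PDIA3, a disulfide isomerase of glycoproteins, was at 447, 414 and 493 CPM in Ctrl and at 215, 201 and 169 CPM after RK-33 (-1.21 ± 0.11, edgeR adjusted p = 1.55e-07). CANX, the membrane-bound lectin chaperone calnexin, went from 1020, 941 and 1086 CPM to 527, 487 and 493 CPM (-1.02 ± 0.10, edgeR adjusted p = 7.06e-07). The ER form of HSP90, HSP90B1, fell from 630 ± 53.1 to 318 ± 23.9 CPM (-0.99, edgeR adjusted p = 1.17e-05), so that within the HSP90 family the ER and the constitutive cytosolic genes fell while HSP90AA1, the inducible gene, had a value of 0.25 that did not pass the test (edgeR adjusted p = 0.3003). Of 35 genes of COPI, COPII and early secretory transport, 12 fell and 0 rose (median -0.34). KDELR1, the receptor that returns ER proteins from the Golgi, was at 110, 98.4 and 86.2 CPM in Ctrl and 36.7, 32.7 and 34.6 CPM after RK-33 (-1.502 ± 0.13, edgeR adjusted p = 5.74e-08), and TMED10, a cargo receptor (-0.87), and COPG1, a coat subunit (-0.74), fell too.

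Cargo of the secretory pathway fell as well. SERPINA1, a secreted protease inhibitor, was the gene with the smallest p among those that fell: 84.4, 75.6 and 86.0 CPM in Ctrl against 26.9, 27.5 and 23.3 CPM after RK-33 (-1.66 ± 0.11, edgeR adjusted p = 2.78e-09). PROS1, an anticoagulant plasma protein, went from 89.8 ± 10.2 to 32.4 ± 4.76 CPM (-1.47), and TIMP1, an inhibitor of metalloproteinases, from 792 ± 37.0 to 350.2 ± 20.9 CPM (-1.18). Of 30 tested collagen and matrix genes, 13 fell and 0 rose (median -0.42). SPARC, a collagen-binding protein of bone, was at 1786, 1758 and 1877 CPM in Ctrl and at 806, 801 and 688 CPM after RK-33 (-1.24 ± 0.13, edgeR adjusted p = 1.42e-06), and FN1, fibronectin, fell from 4506 ± 541 to 2906 ± 180 CPM (-0.63). The fibrillar collagens COL1A1 (-0.57), COL3A1 (-0.31) and COL5A1 (-0.31) did not pass the test. The markers of the U2OS lineage, of which SPARC, FN1 and the collagens are a part, summed to 9087 to 10670 CPM in Ctrl and 5702 to 6356 CPM after RK-33. The number of matrix genes that fell was 8 without Ctrl replicate 3, RK-33 replicate 1 or RK-33 replicate 3.

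At the cell surface, 11 of 26 integrin and receptor genes and 14 of 26 solute carrier and transporter genes fell, and 0 rose in either list (medians -0.39 and -0.52). CD63 and CD9, tetraspanin membrane proteins, fell from 277 ± 18.8 to 102 ± 5.95 CPM (-1.44, edgeR adjusted p = 1.06e-06) and from 129 ± 6.18 to 50.6 ± 7.03 CPM (-1.35, edgeR adjusted p = 1.37e-07). SLC29A1, a nucleoside transporter, was at 154, 142 and 152 CPM in Ctrl and 56.8, 64.4 and 52.9 CPM after RK-33 (-1.36 ± 0.11, edgeR adjusted p = 5.68e-08). The glucose transporter SLC2A1 (-0.91) and the sodium pump subunit ATP1B1 (-0.80) also fell. BSG, a chaperone of lactate transporters (-1.22), LAMP1 of the lysosomal membrane (-1.20), ATP6AP1 of the proton pump (-1.24) and the membrane protein CLPTM1 (-1.42) completed the 10 strongest decreases. Of 23 tested genes of sterol synthesis and uptake, whose enzymes sit in the ER membrane, 8 fell, including DHCR7 (-1.14) and SQLE (-0.82), and 0 rose. Integrin and receptor genes that fell numbered 7 without Ctrl replicate 3. Sterol genes that fell numbered 5 without Ctrl replicate 3, where 1 rose, and 4 without RK-33 replicate 3.

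**Figure D3:**
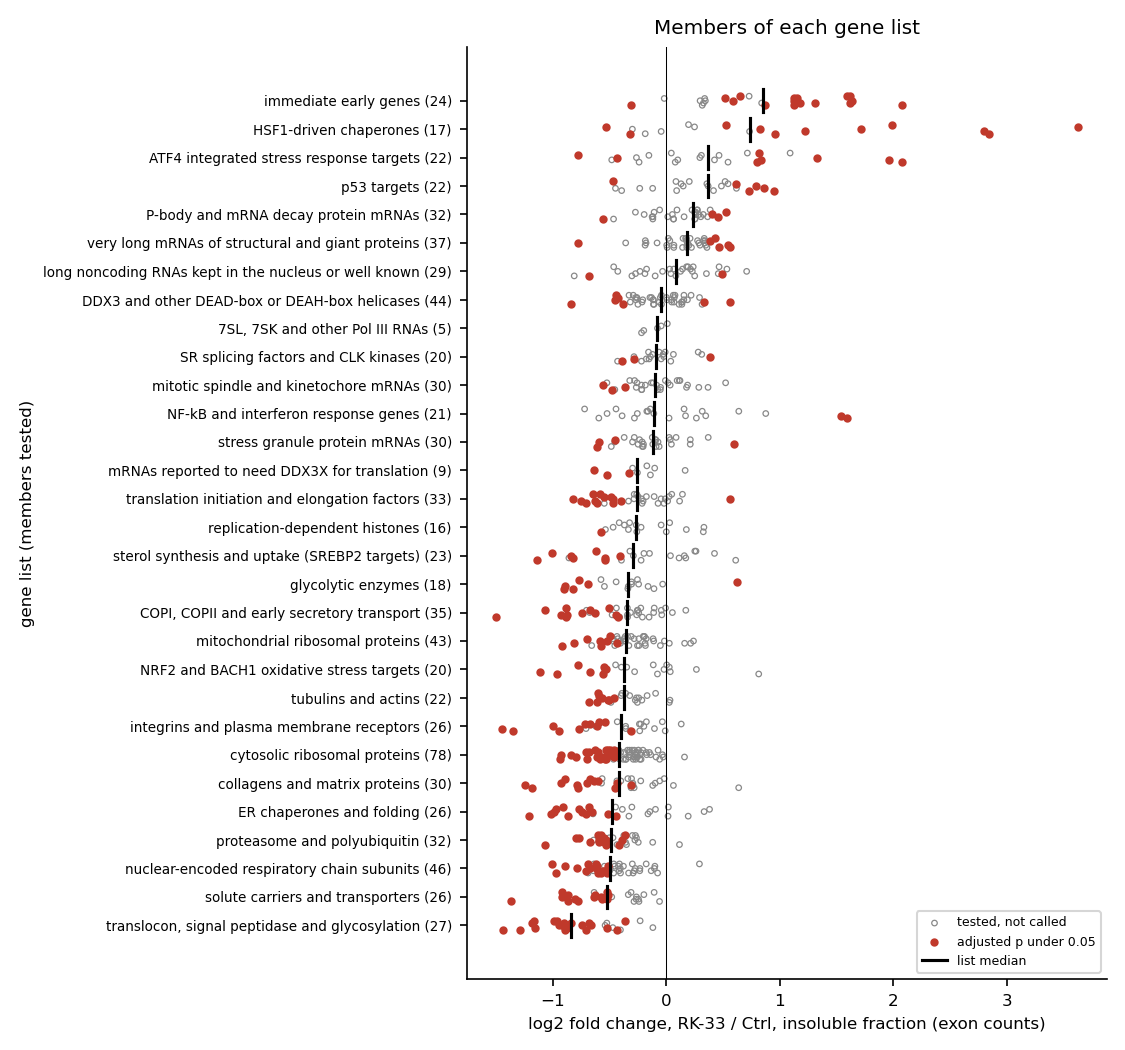
Log2 fold change (RK-33 over Ctrl, insoluble fraction, exon counts) of each tested member of 30 gene lists, ordered by the list median (vertical bar), with called genes in red and the number tested in parentheses. Immediate early genes and HSF1-driven chaperones have the highest medians (0.85 and 0.73) and the translocon and glycosylation list the lowest (-0.83).

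The decrease was not confined to mRNAs of the ER. Of 78 cytosolic ribosomal protein genes, 25 fell and 0 rose, and 77 of the 78 log2 fold changes were negative (median -0.41). RPL5, which carries the smallest rRNA into the large subunit, was at 258, 301 and 291 CPM in Ctrl and 160, 126 and 158 CPM after RK-33 (-0.94 ± 0.12, edgeR adjusted p = 1.12e-05), and RPL4, of the same subunit, went from 660 ± 68.7 to 380 ± 39.3 CPM (-0.80, edgeR adjusted p = 9.84e-05). This count rests on single libraries: it was 9 without Ctrl replicate 2, 10 without RK-33 replicate 2 and 16 without RK-33 replicate 3. Of 33 translation factor genes, 12 fell and 1 rose, and 5 fell without Ctrl replicate 2 and 6 without RK-33 replicate 2. EEF2, the translocase of elongation, went from 1416, 1604 and 1758 CPM to 941, 938 and 963 CPM (-0.75 ± 0.14, edgeR adjusted p = 0.000849), and EIF3D, which binds the mRNA cap, from 175 ± 16.1 to 114 ± 7.07 CPM (-0.61). EIF4A2, a DEAD-box helicase of initiation, was the factor that rose (154 ± 6.86 to 228 ± 2.64 CPM, 0.56, edgeR adjusted p = 0.00108).

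Proteasome, metabolic and cytoskeletal mRNAs fell in part. Of 32 proteasome and polyubiquitin genes, 15 fell and 0 rose (median -0.48), with PSMD12, a lid subunit of the regulatory particle, at 83.6, 89.6 and 92.3 CPM in Ctrl and 59.3, 54.8 and 61.6 CPM after RK-33 (-0.60 ± 0.11, edgeR adjusted p = 0.000655). PSMD14, the deubiquitinase of the lid (-0.53), and PSMC1, an ATPase subunit (-0.79), also fell. Of 18 glycolytic enzyme genes, 5 fell and 1 rose, with GAPDH falling from 799 ± 73.7 to 432 ± 34.6 CPM (-0.89), LDHA at -0.82 and PFKFB3, which makes an activator of glycolysis, rising by 0.63. Of 22 tubulin, actin and related genes, 8 fell and 0 rose, including TUBB (-0.68), ACTN4 (-0.50) and ACTG1 (-0.46), but 4 fell without Ctrl replicate 2 and 3 without RK-33 replicate 2. Of 46 nuclear-encoded respiratory chain subunits, 16 fell and 0 rose (median -0.50), with COX6C at -0.97 and ATP5PB at -0.70, and 9 fell without RK-33 replicate 2. Of 43 mitochondrial ribosomal protein genes, 8 fell and 0 rose (median -0.36), and the number was 4 without Ctrl replicate 1 or 2, 2 without RK-33 replicate 2 and 3 without RK-33 replicate 3.

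RNA made inside mitochondria could be followed only indirectly, since the 37 genes of the mitochondrial genome have 0 counts in the exon table. The nuclear pseudogene MTATP6P1, a recent copy of mitochondrial DNA (chr1:633696-634376), was at 348, 286 and 310 CPM in Ctrl and 87.6, 87.9 and 79.5 CPM after RK-33 (-1.89 ± 0.19, edgeR adjusted p = 5.34e-07). Its neighbours MTCO1P12 (15.6 ± 2.81 to 4.65 ± 0.730 CPM, -1.74) and MTND2P28 (10.2 ± 0.982 to 2.74 ± 0.250 CPM, -1.89) fell by like amounts. These 3 pseudogenes were chosen after their values were seen, and reads of the mitochondrial genome that align best to the copies cannot be told apart from transcripts of the copies. Linear reads at the 5 mitochondrial sites of the circRNA table, which align to the mitochondrial genome itself, were at 2073, 1777 and 1646 CPM of exon plus intron counts in Ctrl and 811.1, 749.8 and 871 after RK-33, whereas linear reads at all other sites were 2073 to 2304 and 2122 to 2197 CPM.

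Among mRNAs of RNP granule proteins, the numbers called lay near the background of 5.76% higher and 8.09% lower, and they say nothing particular about these lists. Of 30 genes of stress granule proteins, 1 rose (NUFIP2, which binds FMRP, 112 ± 0.763 to 169 ± 1.47 CPM, 0.59) and 3 fell, among them the RNA-binding proteins YBX1 (-0.59) and ATXN2L (-0.45), and the median was -0.12. YBX1 and ATXN2L lost their calls without Ctrl replicate 2, and 2 members rose without Ctrl replicate 3 or RK-33 replicate 1. Of 32 genes of P-body and decay proteins, 3 rose, the decay factors SMG5 (0.40) and SMG6 (0.46) and the decapping enzyme DCP2 (0.53), and 1 fell, the deadenylase subunit CNOT3 (-0.56). Although few were called, the median of this list was 0.24, with 23 values above 0 and 9 below 0. The number of P-body genes that rose was 1 without Ctrl replicate 1 or 2 or RK-33 replicate 3. Of 44 DEAD-box and DEAH-box helicase genes, 2 rose and 5 fell, with a median of -0.05. DDX1, which acts in tRNA ligation, was at 202, 223 and 239 CPM in Ctrl and 140, 113 and 118 CPM after RK-33 (-0.84 ± 0.10, edgeR adjusted p = 9.91e-06), and DDX5 (-0.45), DHX9 (-0.45), EIF4A3 (-0.42) and DDX27 (-0.38) also fell, and EIF4A2 and DHX33 (0.34) rose. Helicase genes that fell numbered 3 without Ctrl replicate 3 or RK-33 replicate 2 and 2 without RK-33 replicate 3, and 1 rose without Ctrl replicate 1 or 2 or RK-33 replicate 2 or 3.

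Of 9 tested mRNAs that have been reported to need DDX3X for translation, 3 fell and 0 rose. CCNE1, cyclin E1, went from 54.3 ± 3.31 to 37.8 ± 0.963 CPM (-0.52, edgeR adjusted p = 0.0157), the GTPase RAC1 had -0.33 and the G protein subunit GNB2 -0.64. No member fell without Ctrl replicate 2, RK-33 replicate 2 or RK-33 replicate 3, and 1 fell without Ctrl replicate 3. The lncRNA NORAD, a decoy for PUMILIO proteins, was at 224, 216 and 220.2 CPM in Ctrl and 259, 252 and 274 CPM after RK-33. Its groups did not overlap, which held in this direction for 3783 of the 17666 tested genes. Its log2 fold change of 0.25 ± 0.10 did not pass the test (edgeR adjusted p = 0.119). Of 29 nuclear or well-known lncRNAs, 1 rose (TUG1, 0.50, edgeR adjusted p = 0.0460, a call that was lost whichever library was left out) and 1 fell (SNHG3, a host of small nucleolar RNAs, -0.68), against 5.76% and 8.09% of all genes. NEAT1, the scaffold of paraspeckles, was at 1935, 1561 and 1670 CPM in Ctrl and 2260, 3406 and 1815 CPM after RK-33 (0.53, edgeR adjusted p = 0.0607), with the most spread in the RK-33 group.

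Very long mRNAs lay mostly above 0. Of 37 mRNAs of giant proteins, 5 rose and 1 fell, and 31 of the 37 values were above 0, with a median of 0.18. TRIO, a guanine nucleotide exchange factor, went from 1357, 1459 and 1619 CPM to 2088, 2441 and 2008 CPM (0.56 ± 0.11, edgeR adjusted p = 0.00148), and ZZEF1 rose by 0.54. HSPG2, which encodes the secreted matrix proteoglycan perlecan, was the member that fell (1036 ± 117 to 604 ± 99.3 CPM, -0.78, edgeR adjusted p = 0.00263). The number that rose was 2 without Ctrl replicate 1 or 2 or without RK-33 replicate 1 or 2. Of 20 SR protein and CLK kinase genes 1 rose (SON, 0.38) and 2 fell (SRSF2, -0.28, and SRSF7, -0.39). SON kept its call only without Ctrl replicate 3, and the SR genes that fell numbered 1 without Ctrl replicate 1 or RK-33 replicate 1 and 0 without any other single library. Of 30 mitotic genes 0 rose and 3 fell, including TPX2, a spindle assembly factor (-0.48), and 1 fell without Ctrl replicate 2 or 3 or RK-33 replicate 2. Of 16 replication-dependent histone genes 0 rose and 1 fell (H1-2, -0.57), a call lost without Ctrl replicate 2 or any of the RK-33 libraries. Over all genes 5.76% rose and 8.09% fell. The SR and CLK, mitotic and histone counts lay near these shares and say nothing particular about those lists.

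Among 13439 protein-coding genes, the change ran with the number of hydrophobic stretches in the protein and with the length of the mRNA. A hydrophobic stretch was a window of 19 residues with a mean Kyte-Doolittle hydropathy of at least 1.6, as in signal peptides and membrane-spanning helices. The 8759 genes with 0 stretches had a median log2 fold change of 0.02, the 2402 with 1 stretch -0.07, the 1440 with 2 to 4 stretches -0.15 and the 838 with 5 or more -0.22. The share that fell was 7.11%, 13.9%, 18.3% and 20.4% in these classes, and the share that rose 7.87%, 5.16%, 2.15% and 1.55%. By length of the canonical transcript, from the shortest quintile (up to 1910 bases) to the longest (6015 bases or more), the medians were -0.22, -0.09, -0.00, 0.06 and 0.10, the shares that fell 16.2%, 13.2%, 8.86%, 7.67% and 5.77%, and the shares that rose 1.45%, 2.68%, 5.51%, 9.57% and 12.7%. Both trends were seen side by side: in the longest quintile, 2.26% of genes with 0 stretches and 16.4% of those with 5 or more fell, and in the shortest quintile 13.8% and 28.8%. The order of the shares was not kept in every quintile, with 23.4% for 2 to 4 stretches and 18.1% for 5 or more in the second.

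**Figure D4:**
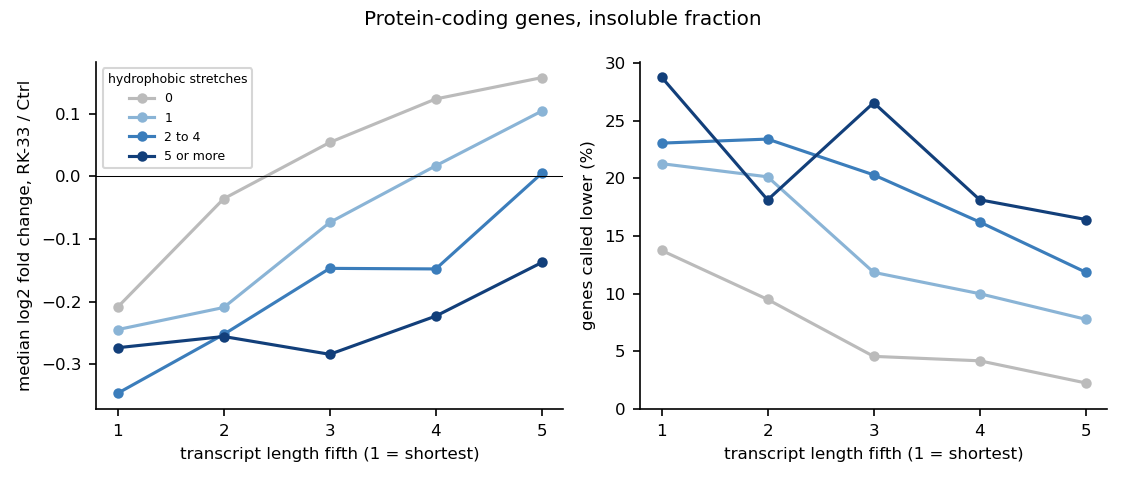
Median log2 fold change (left) and percentage of genes called lower (right) after RK-33 in the insoluble fraction, by quintile of transcript length (1 = shortest) and by the number of hydrophobic stretches in the protein, for 13439 protein-coding genes. In each quintile, genes with 0 stretches (grey) have the highest median and the smallest share called lower.

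Across these genes, the rank correlation of the log2 fold change was 0.27 with transcript length, 0.22 with coding length, 0.18 with the length of each untranslated region, 0.15 with the GC content of the coding sequence, 0.04 with that of the 5′ untranslated region and -0.19 with the number of hydrophobic stretches (Spearman, across genes, which are not independent replicates and share their libraries). In the soluble fraction of the same lysates, the correlation was -0.13 with transcript length and -0.30 with hydrophobic stretches. Of 2808 tested lncRNAs, 89 rose (3.17%) and 23 fell (0.819%) against 6.38% and 10.4% of protein-coding genes. With each library's trend with transcript length removed, 2317 genes were called.

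The question whether the changes were particular to the insoluble fraction was addressed by testing the difference between the RK-33 effects in both fractions. In the soluble fraction, 358 genes (2.03%) were higher and 558 (3.16%) lower after RK-33. Of the 1018 genes higher in the insoluble fraction, 124 (12.2%) were also higher in the soluble fraction, which is 34.6% of the latter, and of the 1429 lower genes 324 (22.7%) were also lower, which is 58.1% of the latter. The difference itself passed the test in the higher direction for 102 genes (0.577%) and in the lower direction for 255 (1.44%). With library size alone, which moved the median difference of all genes from 0.01 to 0.14, the numbers were 229 and 224. The number of calls, 357, rested on single libraries: it was 181 without insoluble Ctrl replicate 2, 215 and 115 without insoluble RK-33 replicates 1 and 3, 110 and 162 without soluble Ctrl replicates 1 and 3, and 167 and 120 without soluble RK-33 replicates 2 and 3. The study's methods pair the soluble and insoluble libraries. With a block for each treatment and replicate number, which pairs them, 46 genes passed (1 higher and 45 lower), all of them among the 357. Of the genes described next as different between fractions, DNAJB6, TRIB1, HSPE1, HSPA8 and RPN1 lost that call in the paired fit (edgeR adjusted p of 0.0822, 0.13, 0.122, 0.0804 and 0.0546), and the others named kept it.

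HSPA1A, ATF3 and DNAJB1 rose in both fractions. HSPA1A had a log2 fold change of 3.70 (soluble) and 2.84 (insoluble; difference -0.86 ± 0.29, edgeR adjusted p = 0.141), ATF3 1.76 and 2.08 (0.32 ± 0.15, edgeR adjusted p = 0.339) and DNAJB1 1.66 and 1.72 (0.05, edgeR adjusted p = 0.952). DNAJB6 rose more in the insoluble fraction (0.43 against 1.14, difference 0.71, edgeR adjusted p = 0.0106), as did TRIB1 (0.74 against 1.32, edgeR adjusted p = 0.0425) and HSPE1 (0.47 against 1.22, edgeR adjusted p = 0.0374). The constitutive chaperones divided: HSP90AB1 rose by 0.53 in the soluble fraction and fell by 0.53 in the insoluble fraction (difference -1.06 ± 0.18, edgeR adjusted p = 0.00295), STIP1 had 0.76 and -0.32 (-1.08 ± 0.15, edgeR adjusted p = 0.000705) and HSPA8 0.67 and -0.30 (-0.97, edgeR adjusted p = 0.0157). Of the 17 chaperone genes, 15 rose in the soluble fraction.

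In the soluble fraction, ER genes fell in part. Of 27 translocon and glycosylation genes, 15 were lower there (median -0.49), as were 4 of 26 ER chaperone genes, and the difference between fractions passed for 3, among them DDOST (-0.37 soluble against -1.29 insoluble, difference -0.92 ± 0.13, edgeR adjusted p = 0.000705) and RPN1 (-0.23, which did not pass the test in the soluble fraction, against -1.15, edgeR adjusted p = 0.00430). SERPINA1 behaved alike (-0.61 against -1.66, difference -1.05, edgeR adjusted p = 0.000705). In other genes the fractions went in opposite directions. EEF2 had 0.64 (soluble) and -0.75 (insoluble; difference -1.39, edgeR adjusted p = 0.000705), HSPG2 0.83 and -0.78 (-1.605, edgeR adjusted p = 0.000798), COPG1 0.51 and -0.74 (-1.25, edgeR adjusted p = 0.000255), FN1 0.70 and -0.63 (-1.33, edgeR adjusted p = 0.00475) and DHX9 0.82 and -0.45 (-1.27, edgeR adjusted p = 0.000537), each past the test in both fractions. The collagen and matrix list had a soluble median of 0.24 and an insoluble one of -0.42, with 6 of its 30 members past the test of the difference. Cytosolic ribosomal proteins had a soluble median of 0.04, with 0 of 78 called there and 4 past the test of the difference. The surface lists fell in both fractions. Integrin and receptor genes had medians of -0.45 (soluble) and -0.39 (insoluble), with 8 of 26 lower in the soluble fraction and 2 past the test of the difference. For solute carriers and transporters the medians were -0.33 and -0.52, with 9 of 26 lower in the soluble fraction and 3 past that test. The list counts past the test of the difference are from the unpaired fit. When the fractions were paired, DDOST (translocon and glycosylation), HSPG2 and FN1 (matrix), RPL4 and RPL5 (ribosomal proteins) and SLC25A5 (transporters) kept that call. The other members counted in these lists lost it, among them all of the integrin and receptor list.

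Intron counts of the same libraries, which can come from unspliced RNA, retained introns, excised introns or other transcripts within them, were tested to set them beside the exon counts. Of 17406 tested genes, 360 (2.07%) had higher and 128 (0.735%) had lower intron counts after RK-33. With library size alone, 229 were higher and 232 lower. The number of calls, 488, was 218 to 286 when any 1 of the 6 libraries was left out. The strongest increases were in chaperone genes. The introns of HSPH1 stood at 34.0, 29.3 and 34.5 CPM in Ctrl and at 588, 506 and 595 CPM after RK-33 (log2 fold change 4.11 ± 0.17, edgeR adjusted p = 1.56e-16), against 0.96 in its exons. The introns of BAG3 went from 25.2, 26.1 and 24.02 CPM to 238, 229 and 273 CPM (3.30 ± 0.18, edgeR adjusted p = 9.69e-14), those of DNAJA4 from 23.9 ± 3.09 to 185 ± 19.5 CPM (2.95) and those of ATF3 from 19.5 ± 1.895 to 146 ± 25.7 CPM (2.90). No library of either group came near the other group in these genes, which were named for their small p in the same libraries.

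Of 11 HSF1-driven chaperone genes with tested introns, 9 had higher intron counts and 0 lower, with a median of 2.29 against 0.01 over all genes. The introns also rose in members whose exons did not. HSP90AB1, whose exons fell by 0.53, had intron levels of 71.3, 69.8 and 68.4 CPM in Ctrl and 347, 339 and 338 CPM after RK-33 (2.29 ± 0.14, edgeR adjusted p = 6.40e-13). STIP1 (2.29), HSPA8 (2.10), HSP90AA1 (2.64), HSPD1 (2.57) and DNAJA1 (2.01) were alike, with exon values of -0.32 to 0.25. Of 16 immediate early genes with tested introns 10 rose and 0 fell (median 1.05), with FOS at 2.59 and EGR1 at 2.77, and CCN1, whose exons fell, at 1.05. Of 5 histone genes with tested introns, 4 rose (median 1.63), led by H2AC6 (28.6 to 171 CPM on average, 2.58), while 0 of 16 had higher exon counts. Which transcripts gave these counts in annotated histone introns was not tested. Over all genes, 2.07% had higher and 0.735% had lower intron counts.

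Introns were called lower for 0.735% of all genes, and in most lists whose exon counts fell the number of lower introns was near that share. For the translocon and glycosylation list, 0 of 25 rose and 1 fell (SSR4, -2.16, at 1.64 CPM in Ctrl), with a median of -0.15, and for ER chaperones 1 of 24 rose and 0 fell, with a median of 0.44. In the collagen and matrix list, 8 of 28 rose and 0 fell (median 0.44), including FN1 (0.69), COL4A1 (0.45) and the collagen chaperone SERPINH1 (2.272, edgeR adjusted p = 7.35e-08). Ribosomal protein introns had a median of -0.01, with 0 of 61 called. Glycolytic enzymes had 2 of 15 lower, LDHA (-0.79, edgeR adjusted p = 0.00873) and ENO1 (-0.59), and NRF2 and BACH1 targets 2 of 19, TXN (-0.70) and GCLM (-0.57). Among introns with a mean of at least 10 CPM, the decreases with the smallest p were those of SKP2, a substrate adaptor of a ubiquitin ligase (57.0 ± 5.72 to 18.96 ± 1.499 CPM, -1.58, edgeR adjusted p = 3.08e-06), TMEM14A (-1.44), ZC2HC1A (-1.15), the lipid transfer protein PCTP (-1.13) and COPRS, a partner of an arginine methyltransferase (-1.01). Over the 13116 genes tested in both tables, 100 were higher in exons and introns (11.7% of the genes higher in exons and 29.2% of those higher in introns), and 28 were lower in both (2.25% and 24.6%). Of the 1244 genes lower in exons, 28 (2.25%) were higher in introns. This is near the 2.07% of all tested genes whose introns were higher, and the count says nothing particular about genes lower in exons. Of the intron changes, 0 passed the test of a difference between the fractions (0%) by edgeR, with 661 genes at an unadjusted p under 0.05. Intron reads of 1 gene can come from another gene inside it or on the other strand, if the counting did not use strand, which the sources used here do not say.

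**Figure D5:**
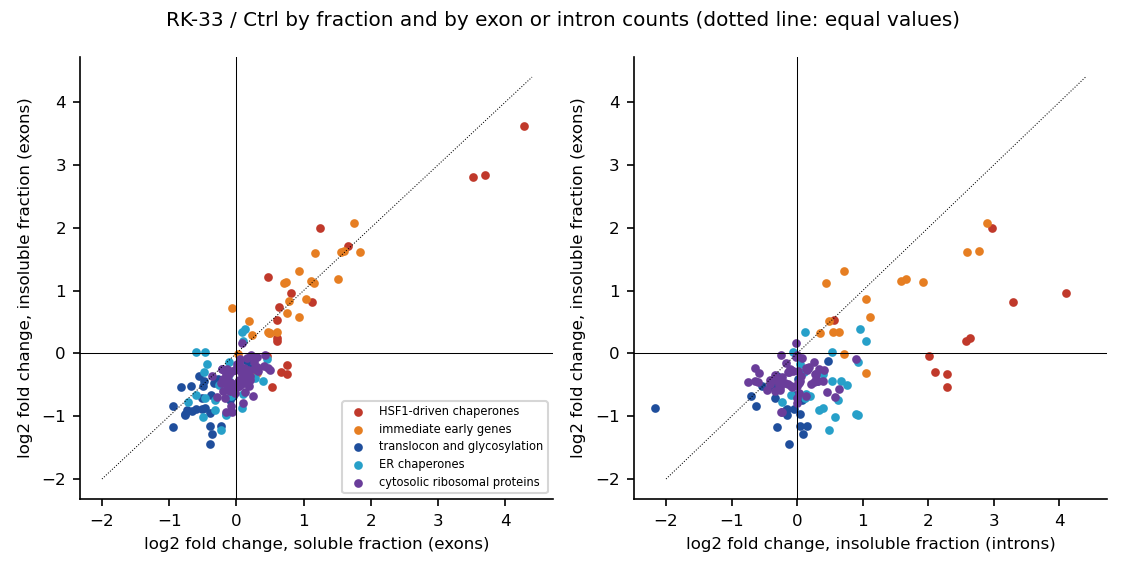
Log2 fold change (RK-33 over Ctrl) of exon counts in the insoluble fraction against that of exon counts in the soluble fraction (left) and that of intron counts in the insoluble fraction (right) for members of 5 gene lists, with the line of equal values dotted. Chaperone genes (red) lie far to the right of the line in the right panel, at intron values of up to 4.11.

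Introns made up 36.3%, 33.3% and 30.5% of exon plus intron counts in Ctrl and 35.1%, 37.5% and 34.8% after RK-33, and the groups overlapped. The difference of 2.41 percentage points had p = 0.3 in a two-sided exact permutation test (adjusted p = 0.3 over 2 tests), where 3 libraries against 3 cannot give less than 0.1.

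Circular RNAs (circRNAs), which form when a splice site is joined to an upstream site, were followed by back-splice counts. Back-splice reads were 0.506%, 0.514% and 0.525% of back-splice plus linear reads at the same sites in Ctrl and 0.938%, 0.710% and 0.883% after RK-33. All RK-33 libraries lay above all Ctrl libraries, with a log2 difference of 0.70 and p = 0.1 in the two-sided exact permutation test, the smallest it can give (adjusted p = 0.2 over 2 tests). The linear reads at mitochondrial sites are part of the denominator. Without these 5 of 394 sites the log2 difference was 0.33 (p = 0.2, exact permutation test), and as CPM of exon plus intron counts the libraries held back-splice levels of 21.1, 20.6 and 20.9 in Ctrl and 28.5, 20.5 and 27.4 after RK-33, where the groups overlap (0.27, p = 0.4, exact permutation test). Of 237 tested circRNAs, 0 (0%) passed edgeR's test in either direction, with 23 at an unadjusted p under 0.05, and DESeq2 called 0. The circRNA of USP10, the gene of a deubiquitinase that binds G3BP1 (chr16:84740309-84745673), had 1, 2 and 1 counts in Ctrl and 12, 9 and 7 after RK-33 (edgeR adjusted p = 0.138). That of ZNF516 had 0, 1 and 0 against 2, 9 and 5 counts, and that of ZNF124 0, 1 and 0 against 2, 5 and 8. That of TET2 had 2, 2 and 1 counts in Ctrl and 0 in all RK-33 libraries. Of several circRNAs of MPP6, that at chr7:24623663-24668660 had 1, 3 and 3 counts and that at chr7:24623666-24680520 had 1, 3 and 0, both with 0 counts in all RK-33 libraries, whereas that at chr7:24623666-24668660, which shares its end and lies 3 bases from the start of the first, had 5, 3 and 2 counts in Ctrl and 3, 3 and 2 after RK-33. The libraries held 292 to 489 back-splice counts each.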

How the data were processed

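RNA of U2OS cytoplasmic fractions was sequenced from rRNA-depleted, directional libraries. The authors aligned the reads with STAR (2.7.2b) to GRCh38.p13 and deposited raw counts of uniquely aligned fragments on exons and, separately, on introns of GENCODE genes from featureCounts (Subread), with a strand setting that is not given in the sources used here, and raw counts of back-splice and linear reads at 394 sites from DCC. SAMtools (1.2) is also in the submitters' processing notes. The exon table holds 60308 genes (1 rejoined from several lines, 12320 at 0 in every library) and that of introns holds 37473 (21 rejoined, 11642 at 0).

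Libraries were grouped by the deposited labels. Genes and introns with a mean of at least 1 CPM over the 24 libraries were scaled with TMM and tested with edgeR's quasi-likelihood test (edgeR 4.0.16, R 4.3.3) in a fit of 8 groups, with Benjamini-Hochberg adjustment over all features, and called at an adjusted p under 0.05. circRNAs were kept at 24 counts in all and scaled by exon plus intron counts. The RK-33 effects of both fractions were compared by a contrast in the same fit. Intron shares and circRNA content were compared with two-sided exact permutation tests. The 6 compared libraries held 13852700 to 17167157 exon plus intron counts, which limits the precision of low values. Named were the 10 genes (introns: 5, circRNAs: 3) with the smallest adjusted p in each direction (genes and introns with a mean of at least 10 CPM and a log2 fold change of at least 1), up to 4 members of each list by p, and genes that the study names, and further members named only for their role or their introns were chosen after their values were seen. The comparison, the gene lists and the named genes' rule were chosen with earlier results of these data known. A few genes are not reported here by name and are counted in the totals only. The scripts were tested on simulated counts. Transcript lengths and protein sequences came from the canonical transcripts of a later GENCODE release on the same assembly, and promoters from RefSeq (GRCh38.p14). Python 3.11.15, pandas 2.3.3 and matplotlib 3.10.9 were used, with DESeq2 1.42.0 as an alternative.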

Additional observations from a re-analysis of the deposited data

Results flagged for a closer look

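Of 131 genes named in the report by the rule, 43 changed after RK-33 by a different amount in the insoluble than in the soluble fraction, as tested by the difference of both log2 fold changes in edgeR's quasi-likelihood fit (adjusted p under 0.05). The difference was above 0 for 2 of them and below 0 for 41. The values, given for 40 of them, are insoluble minus soluble log2 fold changes.

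With the soluble and insoluble libraries of a number paired, 16 of the 43 passed the test, all of them below 0. Those of them named below are HSPG2, EEF2, TKT, COPG1, ACTN4, SERPINA1, DDX1, PDIA3, DDOST, SLC25A5, CLPTM1, ATP6AP1, RPL4 and RPL5. The other genes named below as different did not pass the paired test.

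Above 0 were DNAJB6 (0.71) and TRIB1 (0.58).

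Of the genes below 0, wide differences were those of HSPG2 (-1.605), EEF2 (-1.39), TKT (-1.37), COPG1 (-1.25), ACTN4 (-1.21), SERPINA1 (-1.05) and DDX1 (-1.04). In the ER and the secretory pathway, PDIA3 differed by -0.98, RPN1 by -0.93, DDOST by -0.92, DHCR7 by -0.84, EPHX1 and HSP90B1 by -0.83, PROS1 by -0.81, TIMP1 by -0.71 and SSR2 by -0.56. In membranes, SLC25A5 differed by -0.99, CLPTM1 by -0.97, ATP6AP1 by -0.94, CD63 by -0.86, LAMP1 by -0.80, BSG by -0.75, SLC29A1 by -0.70, SLC2A1 by -0.68 and CD9 by -0.66. These genes do not stand for membrane proteins at large. Over the 838 genes with 5 or more hydrophobic stretches, the median log2 fold change was -0.22 (insoluble) and -0.30 (soluble), with a median difference of 0.07. In translation, EIF3D differed by -0.94, RPL8 by -0.93, RPL4 by -0.90 and RPL5 by -0.87. In other groups, MRPL28 differed by -0.98, GAPDH by -0.94, TPX2 by -0.76, GPI, CCNB1 and CNOT3 by -0.75, ATP5PB by -0.71, TUBB by -0.70 and ACTG1 by -0.67. Over all genes, 255 differed in the lower and 102 in the higher direction with TMM scaling, and 224 and 229 with library size alone.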

How the results depend on the processing

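Of 141 named genes and introns under 17 alternatives, 0 called values changed direction, and 2203 values kept their side of the threshold, 139 fell short of it and 32 newly passed it. None of the 10 strongest exon increases and 10 strongest decreases lost its call under any of them. The exon count of 2447 was 3777 with each library's GC trend removed, 1582 without a filter beyond 10 counts, 6083 in a fit of the 6 libraries alone, and 327 and 13 with a log2 fold change of at least 1 and 2. It stayed within 1.5 times with DESeq2 (2845), the likelihood ratio test that the study used (2681), RLE factors (2410), exon plus intron counts (1682), a mean of at least 5 CPM (2700) and the transcript length trend removed (2317), and was 1534 to 1872 without any single library. It was 2525 with library size alone. The length trend was added after seeing the data, as was library size alone for the gene lists. The intron count of 488 was 871 with DESeq2, 954 with the GC trend removed, 768 with the likelihood ratio test, 158 and 39 with a log2 fold change of at least 1 and 2, 3711 in a fit of the 6 libraries alone, and 218 to 286 without any single library. The count of genes whose effect differed between fractions, 357, was 868 with DESeq2, 635 with a mean of at least 5 CPM, 110 without a filter beyond 10 counts, and 110 to 350 without any single library. The causes of these shifts were not tested, apart from stricter thresholds and fewer libraries. The log2 difference in circRNA content of 0.70 was 0.27 as CPM of exon plus intron counts, 0.34 for circRNAs with both ends in exons, 0.33 without mitochondrial sites (added after seeing the data), and 0.62 to 0.82 without any single library. The difference in intron share was 1.00 to 3.86 percentage points without any single library. The count of called circRNAs was 0 under all alternatives run. The deviations of same-numbered insoluble Ctrl and RK-33 samples correlated at -0.03 to 0.02. Same-numbered fractions, which the study's methods do pair, correlated about as weakly (given below). These correlations thus cannot tell whether replicate numbers pair Ctrl with RK-33 samples. With the replicate number as a block, the counts were 2520 genes, 482 introns and 356 genes that differed between fractions, the circRNA difference had p = 0.25 and the intron share p = 0.5 in exact sign-flip permutation tests, and no named gene or intron crossed the threshold under this replicate block. Of the calls, 2373 genes, 457 introns and 322 genes that differed between fractions were shared with the fit without the block. Between the fractions of a treatment, same-numbered samples correlated at -0.04 to 0.10, and pairing them with a replicate block (added after seeing the data) left 46 of the 357 genes. Of the called members per gene list, 477 counts stayed within 1.5 times under the alternatives tried for lists, and the rest, mostly small counts, did not.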

Other observations

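Of the pseudogene classes, which were looked at after their values were seen, 187 tested transcribed unprocessed pseudogenes held 17 that rose (9.09%) and 0 that fell, with a median log2 fold change of 0.23. The 93 transcribed processed pseudogenes held 4 that rose (4.30%) and 0 that fell, with a median of 0.24. Among 139 other unprocessed pseudogenes 7 rose (5.04%) and 3 fell (2.16%, median 0.22). Among 456 other processed pseudogenes 18 rose (3.95%) and 7 fell (1.54%, median 0.12). The median of 13439 protein-coding genes was -0.03, with 857 that rose (6.38%) and 1392 that fell (10.4%). The 26 transcribed unitary pseudogenes held 3 that rose (11.5%) and 0 that fell, with a median of 0.085. Among the classes given here, transcribed unprocessed and transcribed unitary pseudogenes had shares that rose above that of protein-coding genes. In the unitary class this rests on 3 genes. Pseudogenes share sequence with their parent genes, so their counts are uncertain.

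Some introns, also chosen after their values were seen, rose in all 3 RK-33 libraries. AHSA1, an activator of the HSP90 ATPase, went from 14.96, 16.22 and 13.73 CPM in Ctrl to 82.6, 63.5 and 69.4 CPM (log2 fold change 2.26, edgeR adjusted p = 2.15e-10). TCP1, a subunit of the cytosolic chaperonin, went from 24.5, 27.5 and 22.2 CPM to 88.1, 74.1 and 96.2 CPM (1.798, edgeR adjusted p = 5.87e-10). The groups did not overlap for either intron set, which adds no support, since both were chosen after these values were seen. In the exon table neither gene was called (log2 fold changes of 0.35 for AHSA1 and 0.06 for TCP1, with edgeR adjusted p of 0.0530 and 0.851).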
